A study of Mus musculus with 4 samples.

Results

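The genes described here were those that the authors' annotation placed in the KEGG Cell cycle pathway but in none of 6 KEGG pathways of DNA replication and repair. The Cell cycle term was carried by 122 genes. Of these, 11 were left out for a replication or repair term and 1 was left out by name, which gave 110 members of the 34745 genes in the table. The table gave a KEGG pathway for 7424 genes.

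RNA-seq was performed on bone marrow derived macrophages (BMMs), the cells that fuse into bone-resorbing osteoclasts when they are stimulated with RANKL. All BMMs came from wild-type C57BL/6 male mice aged 8 weeks, were kept without serum for 12 h, and then received complete medium with RANKL (100 ng/mL) for 24 h. In the RANKL+DI group the medium also held dimethyl itaconate (DI), a membrane-permeable derivative of the macrophage metabolite itaconate, and in the RANKL+Veh group it held the DMSO vehicle. The comparison asked how DI altered gene expression during osteoclastogenesis. The labels give the DI dose as 20 mM and the study's methods as 20 μM. The paper states its other DI doses for cultured cells in μM too, so the unit of the labels stands alone, although the files do not correct it. Each group had 2 libraries, and no source says whether they came from separate mice or cultures, so the p-values measure only the spread between these libraries. There were no cells without RANKL, and both groups shared the serum withdrawal and its return.

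The 4 libraries held between 16085692 and 19403480 counts. The upper limit that a count of 0 allows, 3 counts for counting error alone, corresponded to 0.160 to 0.180 CPM (the count scaled to a common library size with TMM factors). Within each group the libraries varied beyond counting error: chi-square divided by its degrees of freedom was 7.57 in RANKL+DI and 7.74 in RANKL+Veh. The macrophage markers were present in every library, with summed levels of 29386 and 30158 CPM in RANKL+DI and 24018 and 23084 CPM in RANKL+Veh, and 7 of 11 marker identifiers passed the test (5 higher and 2 lower with DI). Of all tested genes 14.8% passed, 7.14% higher and 7.7% lower with DI. Of 10 osteoclast markers 8 could be tested and 7 passed, 5 of them lower with DI. Calcr, the calcitonin receptor of mature osteoclasts, was at 0 in every library. Neutrophil markers summed to 246 and 244 CPM with DI and to 124 and 110 CPM with vehicle. Ly6g and Retnlg were at 0, and of 9 markers 5 could be tested and 1 was called higher. Markers of progenitors, erythroid cells, B cells and T or NK cells summed to at most 3.73 CPM in any library for each list. Most fell below the count filter, and none of the 2 progenitor and 3 T or NK markers that could be tested was called. Stromal markers summed to 54.1 to 60.5 CPM over the 4 libraries, with Lepr at 0 and Acta2 called higher. The part of these marker differences in the results below was not tested.

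A dividing cell passes through a fixed order of steps. D-type cyclins with CDK4 and CDK6, and then cyclin E with CDK2, phosphorylate the RB family and free E2F transcription factors, while CDK inhibitors of the Cip/Kip and INK4 families hold these kinases back. Origins of replication are licensed in G1 and fired in S phase. Cyclin A and cyclin B with CDK1 then drive entry into mitosis, the spindle assembly checkpoint holds chromatids together until every kinetochore is attached, and the ubiquitin ligase APC/C with its activator CDC20 releases separase, which cuts the cohesin ring. Macrophage precursors proliferate in response to M-CSF and leave the cycle as they become osteoclasts. Many genes of G2 and mitosis are known to be controlled through CCAAT boxes and the cell cycle genes homology region (CHR) near their start sites, and many genes of the G1-S step through E2F sites.

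The promoters of 4 mitotic genes that were lower with DI are shown first, together with that of Ywhah, the member with the smallest adjusted p among those that were higher, as a contrast. The sequences are from RefSeq on GRCm38.p6, run 5′ to 3′ on the strand of the gene from 250 bases before to 50 bases after the start site, and carry in capitals the letters searched for on both strands. The CHR was searched as TTTGAA. The box that binds NF-Y was searched as CCAAT. E2F sites were searched as TTTCCCGC, TTTCGCGC, TTTGCCGC or TTTGGCGC. A motif on the other strand appears as its reverse complement, for example ATTGG for CCAAT.
Ccnb2 (chr9:70421505-70421804, minus strand): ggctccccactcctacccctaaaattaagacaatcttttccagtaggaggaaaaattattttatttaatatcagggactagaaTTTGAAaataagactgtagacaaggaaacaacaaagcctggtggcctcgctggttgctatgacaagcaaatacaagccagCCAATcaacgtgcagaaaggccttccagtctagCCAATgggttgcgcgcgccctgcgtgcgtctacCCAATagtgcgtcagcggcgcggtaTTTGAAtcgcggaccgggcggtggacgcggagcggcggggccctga
Plk1 (chr7:122159185-122159484, plus strand): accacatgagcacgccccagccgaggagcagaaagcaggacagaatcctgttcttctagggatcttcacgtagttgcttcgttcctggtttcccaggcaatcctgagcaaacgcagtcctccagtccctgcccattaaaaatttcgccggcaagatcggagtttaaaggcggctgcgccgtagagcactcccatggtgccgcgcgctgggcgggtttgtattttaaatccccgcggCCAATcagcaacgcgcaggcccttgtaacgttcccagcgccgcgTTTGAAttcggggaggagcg
Cdc20 (chr4:118437294-118437593, minus strand): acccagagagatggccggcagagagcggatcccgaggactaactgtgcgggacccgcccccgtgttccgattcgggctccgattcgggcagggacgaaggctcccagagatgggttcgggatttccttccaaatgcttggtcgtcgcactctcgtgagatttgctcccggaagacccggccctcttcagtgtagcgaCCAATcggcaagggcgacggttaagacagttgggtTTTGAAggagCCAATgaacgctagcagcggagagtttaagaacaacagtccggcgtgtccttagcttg
Cdk1 (chr10:69352863-69353162, minus strand): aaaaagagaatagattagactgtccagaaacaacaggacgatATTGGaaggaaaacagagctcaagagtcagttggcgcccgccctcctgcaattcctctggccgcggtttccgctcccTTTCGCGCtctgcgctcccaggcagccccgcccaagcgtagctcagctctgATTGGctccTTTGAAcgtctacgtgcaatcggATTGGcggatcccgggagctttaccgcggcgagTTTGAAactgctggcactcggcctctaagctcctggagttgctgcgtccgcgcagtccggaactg
Ywhah (chr5:33018566-33018865, plus strand): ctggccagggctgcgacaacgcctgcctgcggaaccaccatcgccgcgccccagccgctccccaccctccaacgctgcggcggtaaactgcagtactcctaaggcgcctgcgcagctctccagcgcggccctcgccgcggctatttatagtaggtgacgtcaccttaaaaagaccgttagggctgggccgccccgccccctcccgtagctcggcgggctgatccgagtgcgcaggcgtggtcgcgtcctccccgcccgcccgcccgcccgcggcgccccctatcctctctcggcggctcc

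The 4 mitotic promoters held the CHR letters within 20 bases of the start site in Ccnb2 (at 4), Cdc20 (at -18) and Cdk1 (at -15), and at 30 in Plk1, where 0 is the start-site base. In each of the 4 a CCAAT box lay upstream of that CHR match, the nearest of them at -21, -14, -53 and -48 in Ccnb2, Plk1, Cdc20 and Cdk1. Cdk1 also held the E2F letters at -131, and the Ywhah promoter held none of the motifs. The 4 do not stand for all lower mitotic members: of 16 with a promoter, 8 held both CHR and CCAAT, and Smc3 held none of the motifs. Ywhah does not stand for all members that rose: of the 6 with a promoter, 2 held CHR (33.3%), 2 held CCAAT, and none held E2F or both CHR and CCAAT.

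A promoter was found for 88 members. Across the 9210 tested genes with a promoter of the same length, 11.8% held CHR, 39.0% held CCAAT, 4.25% held E2F, and 5.08% held both CHR and CCAAT. Over all 88 members these shares were 19.3%, 52.3%, 15.9% and 12.5%. Among the 29 members that were lower with DI and had a promoter, 10 held CHR (34.5%), 18 held CCAAT, 5 held E2F and 9 held both CHR and CCAAT. Among the 49 that were tested, not called and had a promoter, the shares were 10.2%, 46.9%, 18.4% and 4.08%. The E2F letters were thus about as frequent in members that were not called as in those that were lower, whereas the pairing of CHR and CCAAT was more frequent in those that were lower.

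The CHR and CCAAT pairing lay mainly in the mitotic groups, taken here as entry into mitosis, the spindle checkpoint, the ubiquitin ligases and cohesin, a grouping that was made after the values were seen. Of 16 lower members of the mitotic groups with a promoter, 8 held both motifs: Ttk, Ccnb2, Plk1, Espl1, Cdc20, Bub1b, Skp2 and Cdk1. Skp2 counts here only as a member of the ubiquitin ligase group. Of 13 lower members of the other groups with a promoter, 7.69% did. Of 21 members of the mitotic groups with a promoter that were not called, 4.76% did. The start site used was the listed one nearest the 5′ end of the counted gene. Among those 13 it lay 2408 bases from that end in Cdk6, 870 in Tfdp1, 407 in Chek1 and 350 in Cdc6, and 0 to 69 in the others. Members that were not called had distant sites too, for example 71563 bases in Abl1, 863 in Ep300 and 45650 in Stag1. Stag1 belongs to the 21 uncalled members of the mitotic groups. The part of this placement in the shares was not tested. These shares are descriptions of letters in a window. They were not tested, and a match is not evidence of a bound site. Rad21, Ccna2, Ccnd1, Cdkn1c and Pkmyt1 were called but had no promoter in the table.

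**Figure D1:**
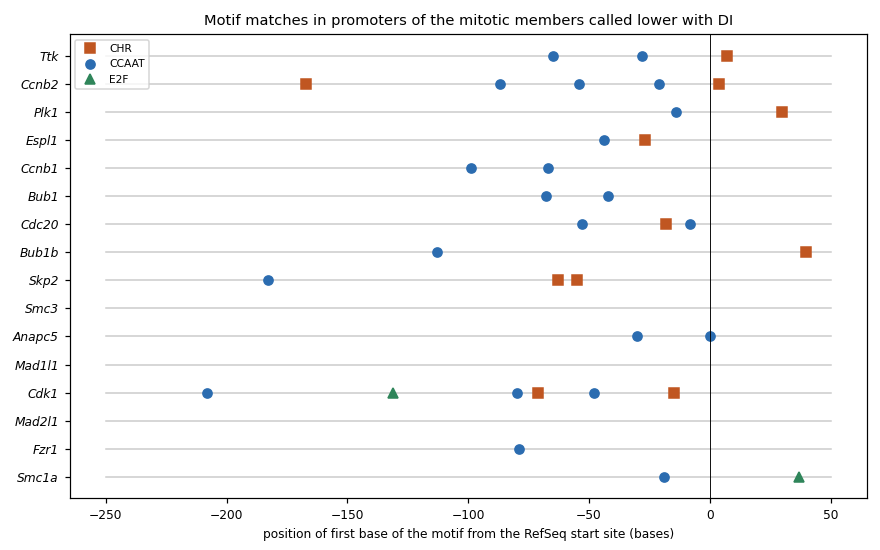
Positions of the CHR (squares), CCAAT (circles) and E2F (triangles) letters in the promoters of the 16 lower members of the mitotic groups that had a promoter, 1 row per gene (horizontal axis, first base of the match in bases from the start site). Ttk, Ccnb2, Plk1, Espl1, Cdc20, Bub1b, Skp2 and Cdk1 carry both squares and circles, and the CHR matches of Ccnb2, Plk1, Cdc20 and Cdk1 include one near the start site.

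Of the 110 members, 106 passed the filter on low counts. Ccna1, the germ-cell cyclin A, Ccnb3 and the oocyte kinase Wee2 were at 0 in all libraries, and the meiotic cohesin Smc1b had at most 2 counts in any library. In edgeR's quasi-likelihood test 40 of the 106 (37.7%) passed an adjusted p of 0.05, against 14.8% of the 12590 genes tested. The direction was uneven. Members lower with DI numbered 33 (31.1%, against 7.7% of all genes tested), and members higher with DI numbered 7 (6.60%, against 7.14%). The share of members that rose was thus near that of all genes, and the share that fell was above it. In bulk RNA, fewer cells of a type and less RNA per cell cannot be told apart.

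The median log2 fold change of the 106 members was -0.13, and that of all genes tested was 0.00117. The individual changes were small. The 33 members that fell stood at a median of 71.2% of the vehicle level, between 57.6% and 85.6%, and only Cdkn1c and Cdkn2b among the called members changed by more than 1 on the log2 scale. The middle 50% of all tested genes lay between -0.17 and 0.16. In none of the 40 called members did the libraries of the groups overlap, but 58.6% of all tested genes also showed no overlap (29.0% with DI higher and 29.6% with DI lower). Over all 106 tested members, 21 had both DI libraries above both vehicle libraries and 56 had both below. Just inside the threshold was Cdc7 (adjusted p = 0.0460) and just outside it was Cdkn2c (adjusted p = 0.0534). All 40 kept their sign in each of 12 other ways of processing or leaving out a library, and 20 of them kept their call in each; the other 20 each lost it when at least 1 library was left out, as given beside each gene.

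**Figure D2:**
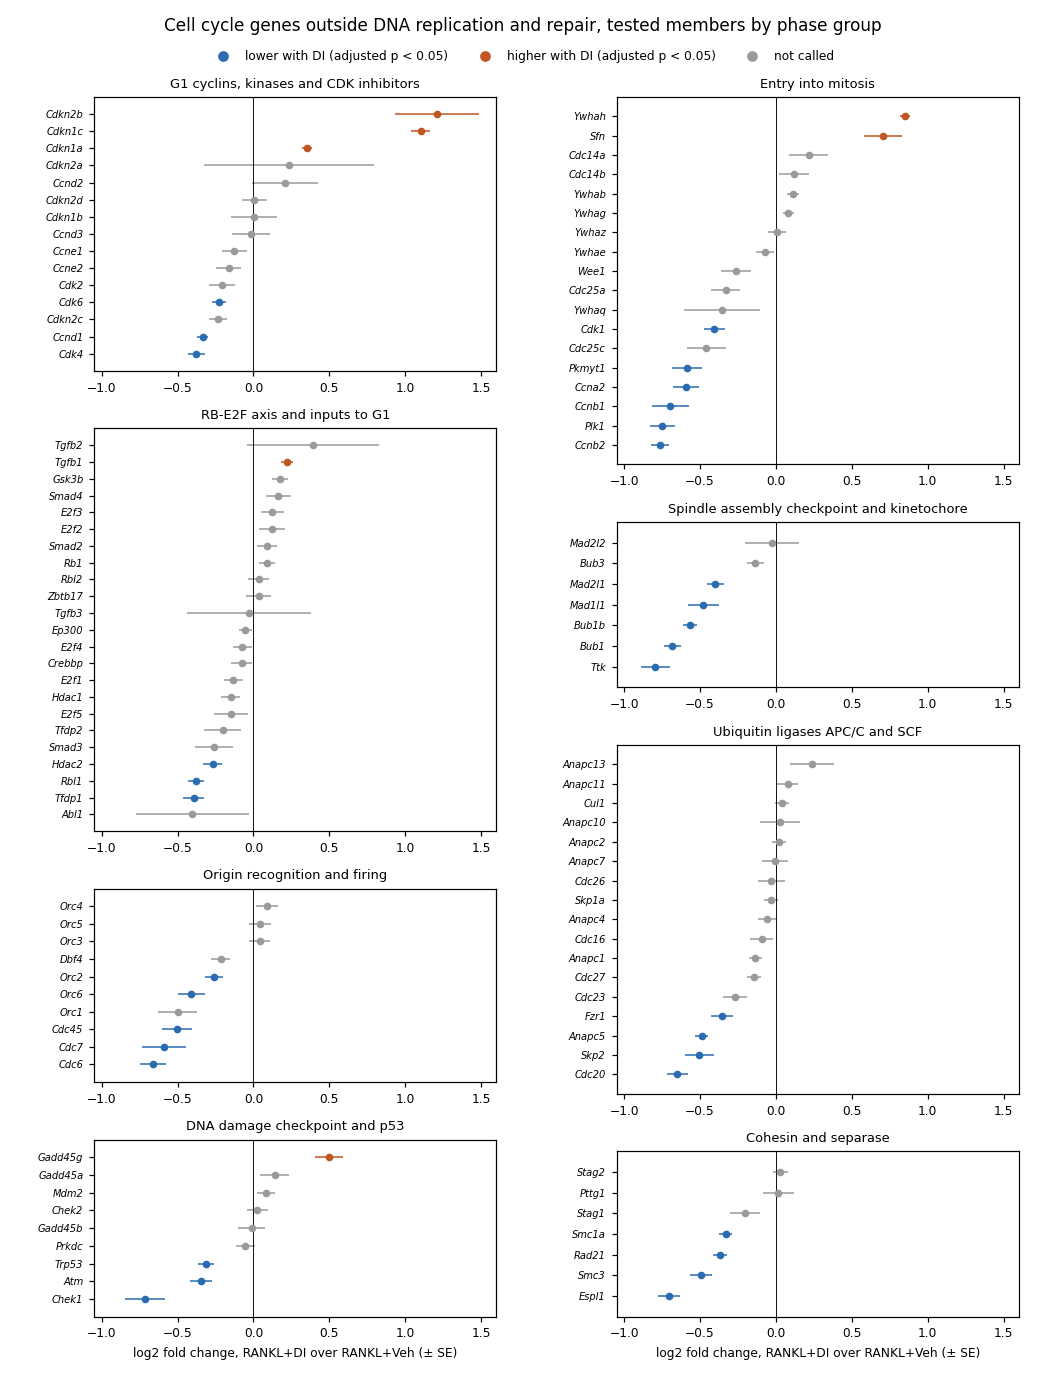
Log2 fold change (RANKL+DI over RANKL+Veh, horizontal axis, bars are ± SE) of each of the 106 tested members, 1 panel per step of the cycle, with lower calls in blue, higher calls in orange and the rest in grey. The origin, spindle checkpoint, APC/C and SCF and cohesin panels hold no orange point, and the highest points are Cdkn2b at 1.21 and Cdkn1c at 1.10.

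The group of G1 cyclins, their kinases and the CDK inhibitors was split in direction. Of 15 members 3 rose and 3 fell (20% each, against 7.14% and 7.7% of all tested genes), and 9 were not called. The median log2 fold change was -0.02, and the summed level was 1466 and 1480 CPM with DI against 1490 and 1500 CPM with vehicle. All 3 that rose were CDK inhibitors, and the 3 that fell were a D cyclin and its kinases.

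Cdkn1c (ENSMUSG00000037664, chr7:143458350-143461050, GRCm38) encodes p57, a Cip/Kip inhibitor. Its level was 102 and 98.9 CPM in the RANKL+DI libraries and 48.1 and 45.8 CPM in the RANKL+Veh libraries, means of 101 ± 2.51 and 47.0 ± 1.62 CPM (SD, n = 2 each). Both DI libraries lay well above both vehicle libraries, at 214% of the vehicle mean. The log2 fold change was 1.10 (SE 0.0595, edgeR adjusted p = 5.6e-04). An antisense gene, Gm44732, covers 30.65% of its exon bases on the other strand, and whether the counting used strand is not given in the sources used here, so reads of the pair cannot be told apart.

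Cdkn1a (ENSMUSG00000023067, chr17:29090979-29100722) encodes p21, the inhibitor best known as a target of p53. It stood at 457 and 465 CPM with DI and at 362 and 360 CPM with vehicle. The groups were separated by a wide margin relative to the spread within them, although the fold was smaller than for Cdkn1c: 0.35 on the log2 scale (SE 0.0351, edgeR adjusted p = 0.00298). Cdkn2b, the INK4 inhibitor p15, was scarce, with 44 and 65 counts in the RANKL+DI libraries and 22 and 24 in the RANKL+Veh libraries. The log2 fold change of Cdkn2b was 1.21 (SE 0.277, edgeR adjusted p = 0.0383), and the call was kept in 6 of 12 alternatives. It was lost with the DESeq2 Wald test, with limma-voom and with the replicate number as a block. The call was also lost without DI replicate 2 (log2 fold change 0.97), Veh replicate 1 (1.07) or Veh replicate 2 (1.35). The other inhibitors did not pass the test. Cdkn1b (p27) had a log2 fold change of 0.00 (adjusted p = 0.993), and Cdkn2a had 6 to 16 counts per library (log2 fold change 0.24, adjusted p = 0.824). Cdkn2c (p18) was at 45.3 and 45.4 CPM with DI and 53.8 and 53 CPM with vehicle, a log2 fold change of -0.23. This gene passed with library size alone (adjusted p = 0.0145), upper quartile factors (0.0483) or limma-voom (0.0468).

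Ccnd1 (chr7:144929931-144939869), which encodes the growth factor-responsive cyclin D1, was by far the most abundant D cyclin. Its mean was 96.9 FPKM over the 4 libraries, compared with 2.10 FPKM for Ccnd3 and 0.226 FPKM for Ccnd2, on the authors' per-length scale. In CPM it was 363 and 355 with DI and 450 and 457 with vehicle, and it fell by 0.33 on the log2 scale (SE 0.0362, edgeR adjusted p = 0.00372). The gene LTO1 overlaps 23.4% of its exon bases on the other strand. Ccnd3 and Ccnd2 were not called, with log2 fold changes of -0.02 and 0.21.

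The kinases that partner D cyclins moved with Ccnd1. Cdk4 was at 79.5 and 79.1 CPM with DI and at 106 and 99.8 CPM with vehicle (log2 fold change -0.38, SE 0.0549, edgeR adjusted p = 0.00900), and Tspan31 overlaps 19.7% of its exon bases on the other strand. Cdk6 was at 218 and 214 CPM with DI and at 245 and 261 CPM with vehicle (-0.22, SE 0.0467, adjusted p = 0.0281). The Cdk6 call was lost without DI replicate 1, DI replicate 2 or Veh replicate 2, with adjusted p of 0.0570, 0.0907 and 0.104. The next step of G1 did not pass the test: Ccne1 (-0.13), Ccne2 (-0.16) and Cdk2 (-0.21) had adjusted p of 0.377, 0.235 and 0.165.

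The RB-E2F axis and the signals that feed it had the smallest share of calls of the 8 groups, with 4 of 23 called. This share of 17.4% was near the 14.8% of all tested genes. Tgfb1, the cytokine that arrests many cell types in G1, rose from 271 and 265 CPM to 312 and 312 CPM (log2 fold change 0.22, SE 0.0373, edgeR adjusted p = 0.0149), and this call was lost with library size alone as scaling, without DI replicate 2 (adjusted p = 0.05002) or without Veh replicate 2 (0.0607). The other 3 called members fell. Tfdp1, the DNA-binding partner of E2F, was at 69.6 and 68.6 CPM with DI and 86.1 and 95.6 CPM with vehicle. Its log2 fold change was -0.39 (edgeR adjusted p = 0.0157), and its call was lost without Veh replicate 2 (log2 fold change -0.32). The pseudogene Gm7390 matches 48.9% of the Tfdp1 transcript at 97.6% identity and could take reads. Rbl1, which encodes the RB relative p107, was at 69.3 and 70.2 CPM against 89.2 and 92.0 CPM, a log2 fold change of -0.38 (adjusted p = 0.00807). Hdac2, a histone deacetylase recruited by RB proteins, was at -0.27 (adjusted p = 0.0363), and its call was lost without any 1 of the 4 libraries (0.0579 to 0.130). The retinoblastoma gene Rb1 itself (0.09, adjusted p = 0.336) and E2f1 (-0.13, adjusted p = 0.21) were not called. With library size alone as scaling, E2f1 (-0.24, edgeR adjusted p = 0.0452) and the histone deacetylase gene Hdac1 (-0.25, adjusted p = 0.0421) passed. The pseudogene Gm10093 matches 70.85% of the Hdac1 transcript at 99.4% identity and could take reads. The highest and lowest fold changes in the group were those of Tgfb2 (0.39, adjusted p = 0.6) and Abl1 (-0.40, adjusted p = 0.532). Abl1, a tyrosine kinase gene, differed between the DI libraries, at 37.8 and 93.7 CPM, with 84.2 and 89.7 CPM in vehicle. Its log2 fold change was -1.20 (adjusted p = 3.38e-04) without DI replicate 2 and 0.11 without DI replicate 1, so its value rested on 1 library.

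Among the genes of origin recognition and firing all calls were in 1 direction. Of 10 members 5 fell (50%, against 7.7% of all tested genes) and none rose, with a median log2 fold change of -0.33. The group summed to 289 and 293 CPM with DI against 334 and 346 CPM with vehicle. Cdc6, which loads the replicative helicase, was at 17.4 and 16.7 CPM with DI and at 27.8 and 26.1 CPM with vehicle (log2 fold change -0.66, SE 0.0864, edgeR adjusted p = 0.00650). Cdc7, the kinase that triggers firing, was at 11.5 and 15 CPM against 19.5 and 20.5 CPM (-0.59, adjusted p = 0.0460). Cdc45, a subunit of the active helicase, was at 20.5 and 18.9 CPM against 26.3 and 29.7 CPM (-0.51, adjusted p = 0.0233). In all of them both DI libraries lay below both vehicle libraries. The call of Cdc6 held without any 1 library. That of Cdc7 was lost without DI replicate 1 or either vehicle library (0.105 to 0.138), and that of Cdc45 without DI replicate 2 (0.0753) or Veh replicate 2 (0.0881).

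Within the origin recognition complex the subunits differed. Orc6 (-0.41, adjusted p = 0.0329) and Orc2 (-0.26, adjusted p = 0.0358) fell, and Nif3l1 overlaps 29.8% of the exon bases of Orc2 on the other strand. The Orc6 call was lost without DI replicate 1 or either vehicle library (log2 fold changes of -0.32 to -0.42). The Orc2 call was lost without any 1 of the 4 libraries (-0.24 to -0.27) and with the DESeq2 Wald test. Orc1 had a log2 fold change of -0.50 without passing (adjusted p = 0.0573), and it passed when only library size was used for scaling (adjusted p = 0.0269) or no count filter was applied (0.0336). Dbf4, the activator of CDC7, passed with library size alone (0.0207). Orc3, Orc4 and Orc5 were at 0.04, 0.09 and 0.05. The 11 Cell cycle genes left out for a replication or repair term had a median log2 fold change of -0.39, with 7 lower (63.6%, against 7.7% of all tested genes) and none higher.

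In the DNA damage checkpoint and p53 group, 3 of 9 members fell and 1 rose (33.3% and 11.1%, against 7.7% and 7.14% of all tested genes). Chek1, the checkpoint kinase of stalled replication, was at 8.86 and 10.5 CPM with DI and at 16.9 and 14.9 CPM with vehicle (log2 fold change -0.72, SE 0.132, edgeR adjusted p = 0.0192). Atm, the kinase that senses double-strand breaks, changed by -0.35 (adjusted p = 0.0304). Trp53, which encodes p53, was at 85.6 and 91.6 CPM against 111 and 109 CPM (-0.31, SE 0.0546, adjusted p = 0.0162). Gadd45g, a stress-induced growth arrest gene, rose from 12.8 and 13.0 CPM to 18.5 and 18.0 CPM (0.50, SE 0.0944, adjusted p = 0.0210). All 4 calls in this group were lost when certain single libraries were left out. The Atm call was lost without DI replicate 2 or either vehicle library (adjusted p of 0.0663 to 0.114). The Chek1 call was lost without DI replicate 1 (adjusted p = 0.0509) or Veh replicate 1 (0.0833). That of Trp53 was lost without DI replicate 1, Veh replicate 1 or Veh replicate 2 (0.0559 to 0.0649), and that of Gadd45g without any 1 of the 4 libraries (0.0561 to 0.0716). Mdm2, the ubiquitin ligase and target of p53, was not called (0.08, adjusted p = 0.416).

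Entry into mitosis held 21 members, of which 18 were tested, with a median log2 fold change of -0.30. Of these 6 fell and 2 rose (33.3% and 11.1%, against 7.7% and 7.14% of all tested genes). The summed level was 2590 and 2674 CPM with DI against 2489 and 2507 CPM with vehicle, and this sum includes the abundant 14-3-3 genes, of which Ywhah rose. All 6 members that fell belong to the cyclin-CDK1 engine and its regulators.

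Ccnb2 (ENSMUSG00000032218, chr9:70407689-70421554) encodes the mitotic cyclin B2. Its libraries were at 41.1 and 41.2 CPM with DI and at 69.8 and 69.8 CPM with vehicle, 59.0% of the vehicle mean, and the log2 fold change was -0.76 (SE 0.0586, edgeR adjusted p = 0.00140). Plk1 (ENSMUSG00000030867, chr7:122159439-122169873), the polo kinase that activates CDK1 and builds the spindle poles, was at 36.5 and 38.0 CPM against 66.2 and 59.0 CPM, 59.6% of the vehicle mean (-0.75, SE 0.0795, adjusted p = 0.00348). These are the genes of the CHR promoters printed above, as is Cdk1 (chr10:69336635-69352938), the mitotic kinase. Cdk1 was at 58.5 and 53.4 CPM with DI and at 75.6 and 72.6 CPM with vehicle (-0.41, SE 0.0697, adjusted p = 0.0153), and its call was lost without Veh replicate 1 (adjusted p = 0.0601).

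The remaining engine genes had the same direction. Ccna2, the cyclin of S phase and G2, was at 112 and 114 CPM with DI and at 184 and 155 CPM with vehicle (log2 fold change -0.59, SE 0.0825, edgeR adjusted p = 0.00781), and Exosc9 overlaps 12.5% of its exon bases on the other strand. Ccnb1, cyclin B1, was at 34.3 and 27.8 CPM against 53.8 and 46.5 CPM (-0.70, SE 0.123, adjusted p = 0.0168). Its value is uncertain because the pseudogene Ccnb1-ps matches 51.7% of its transcript at 99.2% identity, and its call was lost without Veh replicate 1 (adjusted p = 0.0672). Pkmyt1, which encodes a membrane-bound kinase that inhibits CDK1, also fell, from 21.3 and 23.5 CPM to 14.4 and 15.5 CPM (-0.59, adjusted p = 0.0156), and the call was lost without Veh replicate 2 (adjusted p = 0.0629). Cdc25a and Cdc25c, phosphatases that activate the CDKs, did not pass in the main test. With library size alone as scaling they were at -0.44 and -0.56 (adjusted p of 0.0303 and 0.0307), both also passed without the count filter (0.0481 and 0.0405), and Cdc25a passed without DI replicate 2 (0.0386).

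The members of this group that rose were both 14-3-3 genes, whose products bind phosphorylated proteins such as CDC25. Ywhah (ENSMUSG00000018965, chr5:33018816-33027966), 14-3-3 eta, was at 650 and 660 CPM with DI and at 365 and 361 CPM with vehicle, means of 655 ± 6.78 and 363 ± 2.71 CPM (SD, n = 2 each). Its log2 fold change of 0.85 (SE 0.0343, edgeR adjusted p = 2.58e-04) had the smallest adjusted p of all members. Sfn, 14-3-3 sigma, was scarcer at 16.3 and 14.8 CPM against 8.86 and 10.2 CPM (0.70, SE 0.124, adjusted p = 0.0165), and its call was lost without Veh replicate 1 (adjusted p = 0.0667). Both have a pseudogene that could take reads, Gm12428 at 98.1% identity over 38.2% of the Ywhah transcript and Gm7850 at 97.5% over 44.1% of that of Sfn. The other 14-3-3 genes did not pass under any of the 4 scalings: with the main one Ywhae was at -0.07, Ywhaz at 0.01, Ywhag at 0.08, Ywhab at 0.11 and Ywhaq at -0.35, and Ywhag turned negative with library size alone, as did Ywhaz, which was also just below 0 with upper quartile factors. Ywhaq differed between the DI libraries, with 1104 and 2189 counts against 2232 and 1864 with vehicle. Without DI replicate 2 Ywhaq was at -0.85 and passed (adjusted p = 8.09e-04), and without DI replicate 1 it was at 0.01.

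**Figure D3:**
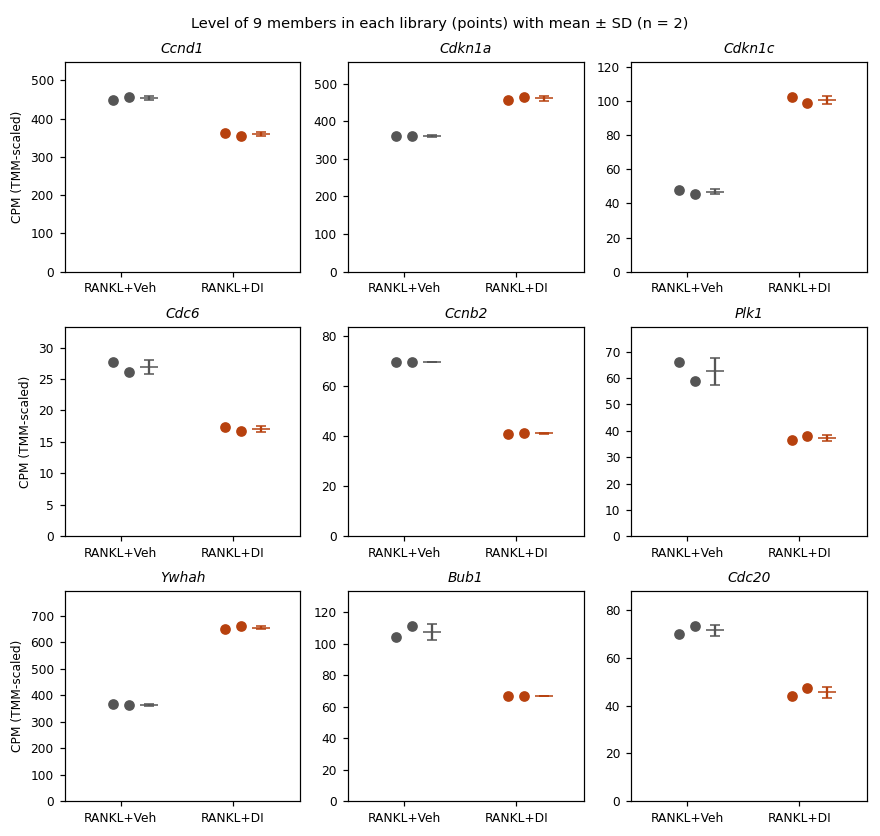
Level of 9 called members in each of the 4 libraries (points, TMM-scaled CPM, linear axis from 0 in each panel) with mean ± SD of each group (n = 2). Cdkn1a, Cdkn1c and Ywhah are above vehicle in both RANKL+DI libraries, and Ccnd1, Cdc6, Ccnb2, Plk1, Bub1 and Cdc20 are below it in both. All 9 belong to the 20 of 40 called members that kept their call in each of 12 alternatives, so they do not stand for the rest.

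The spindle assembly checkpoint had the largest share of calls of the 8 groups. Of 7 members 5 fell (71.4%, against 7.7% of all tested genes) and none rose, with a median log2 fold change of -0.48. The group summed to 362 and 379 CPM with DI against 506 and 506 CPM with vehicle. Ttk, the kinase MPS1 that starts the checkpoint signal, was at 16.7 and 18.9 CPM with DI and at 30.2 and 31.7 CPM with vehicle. At 57.6% of the vehicle mean it had the lowest log2 fold change of all members, -0.79 (SE 0.0944, edgeR adjusted p = 0.00486). Bub1, a kinetochore kinase, was at 67.1 and 67.0 CPM against 104 and 111 CPM (-0.68, SE 0.0566, adjusted p = 0.00181). Bub1b, which encodes the checkpoint protein BUBR1, was at 82.7 and 82.1 CPM against 123 and 121 CPM (-0.57, SE 0.0465, adjusted p = 0.00179). The DI libraries of both genes were nearly equal to each other and far from the vehicle libraries.

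Mad1l1 and Mad2l1, whose products form the complex that inhibits CDC20, fell as well. Mad1l1 was at 29.0 and 33.1 CPM with DI and at 46.2 and 40.3 CPM with vehicle (log2 fold change -0.48, edgeR adjusted p = 0.0298), and its call was lost without DI replicate 1 (0.0769) or Veh replicate 1 (0.117). Mad2l1 was at 58.3 and 59.9 CPM against 76.6 and 79.2 CPM (-0.40, adjusted p = 0.00905). Mad2l2, which acts mainly in DNA repair and translesion synthesis, was at -0.03 (adjusted p = 0.94), and its sign changed with the library left out. Bub3 passed only with library size alone as scaling (-0.24, adjusted p = 0.0354).

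Among the ubiquitin ligases APC/C and SCF, 4 of 17 members fell (23.5%, against 7.7% of all tested genes), none rose, and the median log2 fold change was -0.06. The activators of the APC/C and the SCF substrate receptor fell while most core subunits were not called. Cdc20 (chr4:118432901-118437352), the mitotic activator, was at 44.0 and 47.3 CPM with DI and at 70.1 and 73.2 CPM with vehicle (-0.65, SE 0.0678, edgeR adjusted p = 0.00328). Fzr1, the activator CDH1 of late mitosis and G1, was at 49.1 and 44.3 CPM against 59.2 and 60.3 CPM (-0.36, adjusted p = 0.0276), a call that was lost without DI replicate 2 or either vehicle library (0.0775 to 0.0931). Skp2, the receptor through which SCF degrades p27, was at 19.8 and 20.7 CPM against 30.6 and 26.9 CPM (-0.51, adjusted p = 0.0210), a call that was lost without DI replicate 1 (0.0598) or Veh replicate 1 (0.0751). Anapc5 was the core subunit that fell, from 196 and 201 CPM to 141 and 142 CPM (-0.49, SE 0.0410, adjusted p = 0.00186). Anapc1, Cdc27 and Cdc23, further core subunits, passed when only library size was used for scaling, with log2 fold changes of -0.24, -0.25 and -0.38, and Cdc23 also passed without DI replicate 1 (adjusted p = 0.0434). Kif20a overlaps 13.4% of the exon bases of Cdc23 on the other strand. Anapc13 had the highest fold change of the group (0.24, adjusted p = 0.343).

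Cohesin and separase closed the pathway with 4 of 7 tested members lower (57.1%, against 7.7% of all tested genes), none higher and a median log2 fold change of -0.33. Espl1, which encodes separase, was at 38.8 and 42.1 CPM with DI and at 64.5 and 67.5 CPM with vehicle (-0.71, SE 0.0707, edgeR adjusted p = 0.00298). The core ring was lower by less. Smc3 was at 68.2 and 74.4 CPM against 96.1 and 105 CPM (-0.49, adjusted p = 0.00870), Rad21, the subunit that separase cuts, was at 199.9 and 211 CPM against 265 and 266 CPM (-0.37, SE 0.0439, adjusted p = 0.00491), and Smc1a was at 140 and 140 CPM against 172 and 180 CPM (-0.33, adjusted p = 0.00698). Stag2, which encodes a subunit bound to the ring, was not called (0.03, adjusted p = 0.756).

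Genes outside the pathway were set beside it from lists of proliferation, G1-S, p53 and quiescence genes. Of 34 proliferation markers 30 fell and none rose, with a median log2 fold change of -0.54. Hmmr, a spindle protein, was at -0.68 (edgeR adjusted p = 0.00148), Anln, which acts in cytokinesis, was at -0.58 (0.00148) and the condensin subunit Ncapd2 was at -0.57 (0.00139). Cks2, Stmn1, Cdkn3 and H2afz were not called. Of 20 G1-S transcripts 16 fell and none rose, with a median of -0.46, among them the replication-coupled chromatin factors Uhrf1 (-0.72, adjusted p = 6.48e-04) and Hells (-0.78, adjusted p = 0.00141), and the ribonucleotide reductase subunit Rrm1 (-0.44, adjusted p = 0.00240). Against 14.8% of all tested genes, 88.2% of the proliferation markers and 80% of the G1-S transcripts were called.

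For the targets of p53 outside the pathway, of 15 tested, 6 rose (40%, against 7.14% of all tested genes) and none fell, with a median log2 fold change of 0.24. Phlda3 was at 0.53 (edgeR adjusted p = 0.00498), Zmat3 at 0.43 (0.00675) and Plk2 at 0.24 (0.0117), and the call of Plk2 was lost with library size alone (adjusted p = 0.0540). Of 12 genes of quiescence and growth restraint 3 rose and 2 fell (25% and 16.7%, against 7.14% and 7.7% of all tested genes), with a median of 0.08. Klf2 (0.54, adjusted p = 0.0236), Txnip (0.50, adjusted p = 0.0334) and Foxo3 (0.30, adjusted p = 0.0349) rose, and Klf4 (-0.30) and Btg1 (-0.19) fell. Each of these 3 calls for a rise was lost in at least 2 of the 4 fits that left out a library.

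**Figure D4:**
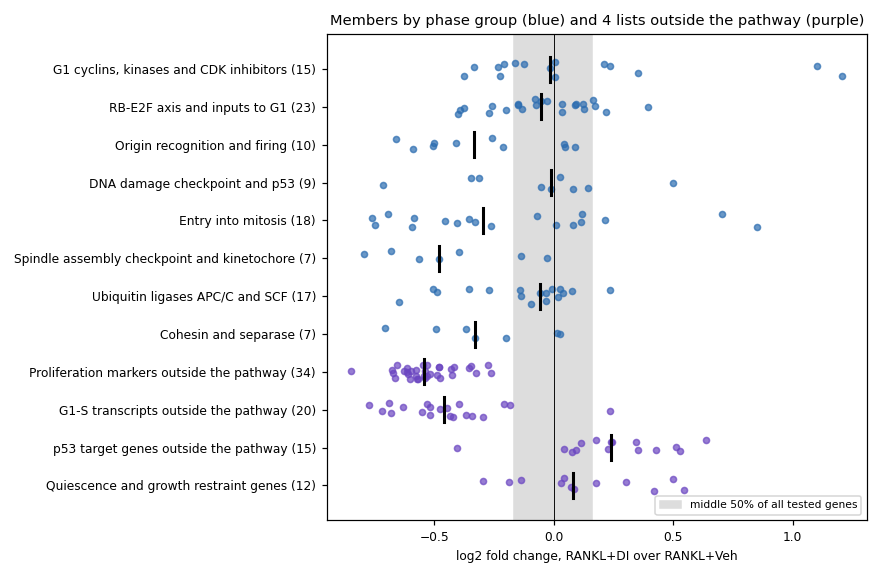
Log2 fold changes (RANKL+DI over RANKL+Veh) of the tested members by step (blue) and of 4 lists outside the pathway (purple), 1 point per gene, with a bar at each median and a grey band for the middle 50% of all tested genes, -0.17 to 0.16. The medians of the proliferation markers (-0.54) and the spindle checkpoint (-0.48) lie left of the band, and that of the p53 targets (0.24) lies right of it.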

How the data were processed

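Gene-level raw counts and FPKM values for 4 libraries were used as deposited by the authors, who made them from mRNA-seq libraries. Per the labels and the submitters' processing notes the build was GRCm38 (mm10). The aligner, the counter, the annotation and the strand setting are not given in the sources used here. FPKM, the authors' value per length, was used only to compare levels between genes.

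Counts were fitted with edgeR 4.0.16 in R 4.3.3 (TMM factors, default filterByExpr, quasi-likelihood test, condition as the only term, all 4 libraries), and p-values were adjusted by Benjamini-Hochberg over all 12590 genes tested. A gene was called at an adjusted p under 0.05. DESeq2 1.42.0, limma 3.58.1 (voom), other scalings, filters, the replicate number as a block and each library left out were alternatives. Scripts were tested on simulated data.

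Named genes were the 15 members with the smallest adjusted p, 25 core regulators, the extremes of each step and up to 3 genes per outside list; other members were named because they were called or stood near them, after their values were seen. The members and lists were chosen with earlier results of these data known. Transcript copies were searched with BLAST+ 2.17.0 (identity of 95% or more, 20% or more of the length), and exon overlaps in GENCODE M21. Not every copy or overlap found is named above. Whether the replicate numbers pair the libraries is not given in the sources used here.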

Additional observations from a re-analysis of the deposited data

How the results depend on the processing

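All 40 called members kept their sign under each of 12 alternatives, and 20 of them (17 lower, 3 higher) kept their call in every one. The total was 40 with DESeq2 size factors or at least 10 counts in every library, 41 with upper quartile factors, 43 without the filter, 38 with the DESeq2 Wald test, 40 with limma-voom and 50 with library size only, which shifted the median of all genes by -0.10 on the log2 scale. APC/C and SCF calls then rose to 7. With the replicate number as a block the total was 28, with 1 call in the damage group and 1 in origin firing. In that fit 11% of all tested genes passed, against 14.8% in the main fit. The deviations of the same-numbered libraries had a correlation of -0.075 over 11720 genes, and those of the crossed libraries 0.075. With 2 libraries a group these are mirror images of 1 contrast, so they cannot show whether the numbers are a pairing. The block cost 12 members their calls (Atm, Cdc45, Cdc7, Cdk6, Cdkn2b, Chek1, Fzr1, Gadd45g, Hdac2, Mad1l1, Orc2 and Orc6, edgeR adjusted p from 0.0501 to 0.0697). Leaving out 1 library gave 25 to 34 calls in all, 4 to 6 higher and 21 to 30 lower; damage 0 to 2, mitotic entry 5 to 10, origin firing 1 to 3, APC/C and SCF 2 to 4, RB-E2F 1 to 3. The share of all tested genes that were called was also below that of the main fit in each of these fits. Genes that changed sign were all uncalled. With library size only 19 members did, among them Cdkn1b (-0.10), Rb1 (-0.014), Mdm2 (-0.021), Stag2 (-0.076) and Orc4 (-0.017). Cdkn1b was at -0.0052 with upper quartile factors, -0.0093 with limma-voom and -0.014 with the block. Leaving out 1 library changed the sign of 5 to 11 members a time and moved Cdkn1b from -0.25 to 0.22, Stag2 from -0.014 to 0.071, Ccnd3 from -0.21 to 0.16, Cdkn2a from -0.30 to 0.94, Tgfb2 from -0.084 to 0.77, Mad2l2 from -0.23 to 0.15 and Abl1 from -1.20 (without DI replicate 2) to 0.11 (without DI replicate 1). The causes were not tested. With 2 libraries a group, small changes in scarce genes such as Cdkn2a could not be resolved.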
